A study of Mus musculus with 6 samples.

Results

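Nascent transcription of zinc finger transcription factor genes was followed in cultured mouse bone marrow progenitors that carried wild-type MLLT3 or an MLLT3 with 2 substitutions. The genes were taken by symbol: those starting with Zfp and a digit, Zkscan, Zscan, Zbtb, Zik, Zfhx, Zeb1, Zeb2, Znf or Ikzf, without Zfp36 and its relatives, which bind RNA. This gave 37 of the 2744 genes held. They comprised 8 Zfp genes of the KRAB type (Zfp9, Zfp57, Zfp184, Zfp473, Zfp658, Zfp729a, Zfp940 and Zfp958), 20 other Zfp genes, 4 Zbtb genes, 2 genes of the Ikaros family (Ikzf2 and Ikzf4), 2 Zscan genes and Zeb2. No gene named Zkscan, Zik, Zfhx or Znf was among those analysed here.

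PRO-seq maps RNA polymerase engaged in transcription: in isolated nuclei the polymerase adds biotin-tagged nucleotides to the RNA it is making, here for 3 min, and the tagged RNA is pulled down for sequencing. All 6 libraries came from cKIT+ bone marrow cells of female C57/BL6 mice with the genotype Mllt3 flox/flox Rosa26Cre+, whose ages are not given. The cells were transduced, sorted and grown in methylcellulose for 8 days with 200 nM 4-hydroxytamoxifen, by which both groups were to lose their own Mllt3, and with mFlt3L at 10 ng/mL and mSCF, mIL-3, mIL-6, mIL-11, mGMCSF, hEPO and hTPO at 20 ng/mL each. In 3 libraries the cells had received wild-type MLLT3 (WT), and in 3 they had received MLLT3 K63E K67E (the double mutant, DM). The labels put all of them in batch 1 and do not say whether replicates came from separate mice or cultures, so the p-values measure only the spread between these libraries, which may be technical. The series addresses how the YEATS domain of MLLT3, a reader of modified histones and of 7SK RNA, acts in blood formation. Every gene held had been called changed in its body by the authors (adjusted p of at most 0.0498 in the authors' deposited table, and at most 0.0461 for the zinc finger genes). Body comparisons below therefore describe genes chosen on that same contrast.

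C2H2 zinc fingers are small zinc-binding folds that read DNA in tandem arrays. In KRAB-type proteins the array is joined to a KRAB domain, which brings in the co-repressor Trim28 together with the histone methyltransferase Setdb1 and HP1 proteins; many of these proteins silence transposable elements. Zbtb proteins carry a BTB domain that dimerises and can bind co-repressors such as Bcor, whereas Ikaros family proteins work with the NuRD remodelling complex in lymphoid and other blood cells. Zeb2 is a repressor with fingers at both ends that is needed in blood cell differentiation.

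Polymerase was counted in 2 windows of each gene: a head of 330 bp that began 30 bp before the deposited 5′ end, and a body that was the rest of the transcript, introns included. Values are reads per 1000000 reads of the library total (RPM), and totals ran from 15112853 to 22981603 reads. The bodies of the zinc finger genes were 3.07 to 461 kb long, with a median of 19.7 kb, against 33.5 kb over all genes. They lay on 16 chromosomes, 8 of them on chromosome 7 and 4 on chromosome 18. Another gene of the table overlapped Zfp473 (Vrk3), Zfp276 (Vps9d1) and Zfp740 (Csad), in each case on the opposite strand. Among all RefSeq genes, on either strand, another gene overlapped 17 of the 37 members, Zeb2 (Zeb2os), Zfp91 (Lpxn) and Zfp597 (Naa60 and Zfp174) included. The use of strand and the handling of reads that map to several places are not given in the sources used here. Values of members that overlap another gene are therefore uncertain, as are those of KRAB-type genes with near-identical relatives such as Zfp729a.

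Mllt3 itself had 80.6, 77.2 and 95.3 RPM in its body in WT and 58.4, 63.0 and 58.9 RPM in DM, a log2 change of -0.49 (SE 0.11, adjusted p 0.0037). The deleted part of the gene is not given in the sources used here, so these reads check neither its deletion nor the transduced copy.

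In the gene body, 36 of the 37 zinc finger genes had enough reads to be tested with edgeR's quasi-likelihood test, and all 36 passed an adjusted p of 0.05: 16 were higher and 20 lower in DM. Over all 2721 genes tested, 99.5% passed, 57.4% higher and 42.1% lower, because the table holds only genes the authors had called; the count itself is thus no result. With other library scalings the zinc finger split was 9 higher and 20 lower (TMM factors) or 4 higher and 20 lower (DESeq2); over all 2721 genes these scalings called 1141 higher and 1157 lower, and 863 higher and 1158 lower. The median log2 change of the zinc finger genes was -0.32, against 0.40 for all genes. The member changes nearest 0 were 0.21 (Zfp407) and -0.28 (Zfp438), so the median mostly tells which direction held more genes. TMM moved the median of all genes by -0.21 and DESeq2 by -0.33 on the log2 scale; a scaling moves all genes together, so it leaves the distance between the medians as it is. Body levels did not overlap between the groups' libraries for 34 of the 36, 16 higher and 18 lower; over all genes 95.6% were apart in this way, 57.3% higher and 38.3% lower.

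**Figure D1:**
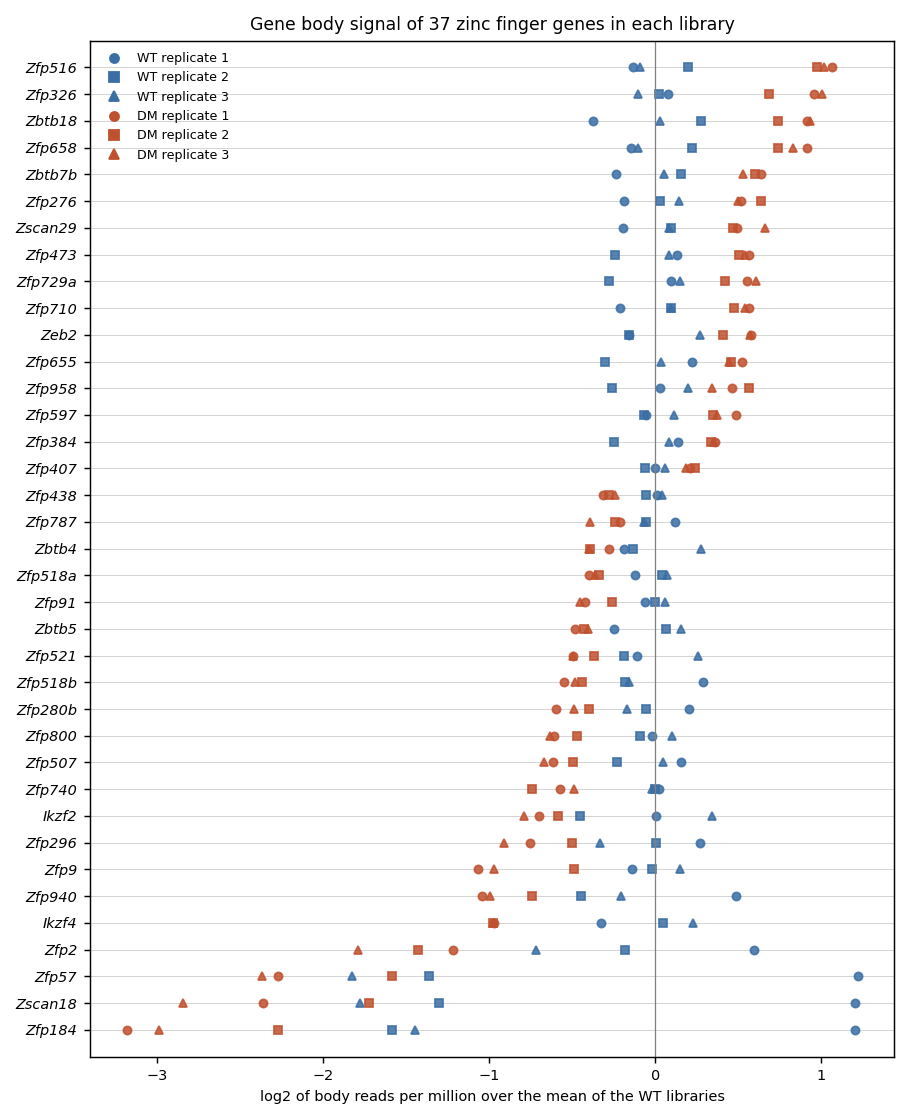
Body RPM of each of the 37 zinc finger genes in each library, as log2 of the value over the WT mean (x axis); genes are ordered by their mean change, blue marks WT and red DM, and the marker shape gives the replicate number. In the upper 16 genes every DM library lies above every WT library; at the bottom, WT replicate 1 stands far to the right of the other libraries for Zfp57, Zscan18 and Zfp184.

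Markers of cell types moved with the groups. Of 18 neutrophil and monocyte markers 9 were held; 8 rose and Ctsg fell, and their summed body signal was 252 to 315 RPM in WT and 668 to 773 RPM in DM. The 3 of 10 dendritic cell markers held all rose, from 66.0 to 71.5 RPM in WT to 117 to 133 RPM in DM. Stem and progenitor markers were held for 8 of 10 and tested for 7, of which 6 fell and 1 rose, with sums of 2806 to 3584 RPM in WT and 1725 to 1795 RPM in DM; Kit, which defines the labelled cKIT+ cells, had 1266 ± 259 RPM in WT against 657 ± 8.53 RPM in DM (SD, n = 3 per group). All 4 of 12 erythroid and megakaryocyte markers held fell (197 to 223 RPM in WT, 107 to 125 RPM in DM), as did all 4 of 9 mast cell and basophil markers (1447 to 2592 and 1108 to 1184 RPM) and both of 10 T and NK cell markers (20.1 to 24.7 and 10.7 to 12.3 RPM). No marker held was at 0, and those of B cells and of stromal cells were not analysed here. The part of these cell types in the changes of the zinc finger genes was not tested.

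Both Ikaros family genes fell. Ikzf2, which encodes Helios (minus strand, mm10 chr1:69531214-69687245), had body levels of 290, 211 and 366 RPM in WT replicates 1 to 3 and 178, 193 and 167 RPM in DM. The WT libraries were higher and far more spread than the DM libraries, without overlap, and the log2 change was -0.69 (SE 0.181, adjusted p 0.00751). Ikzf4, which encodes Eos (minus strand, chr10:128630843-128669358), had 21.2, 27.5 and 31.2 RPM in WT and 13.6 RPM in each DM library. All WT libraries were above the DM level, and the log2 change was -0.97 (SE 0.152, adjusted p 0.00071). In bulk libraries such as these, fewer cells of a type and less nascent RNA per cell cannot be told apart.

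The 4 Zbtb genes divided evenly. Zbtb7b, which encodes the CD4 T cell lineage factor ThPOK (minus strand, chr3:89377644-89392069), rose from 41.9, 54.8 and 51.1 RPM in WT to 76.7, 74.8 and 71.0 RPM in DM, a log2 change of 0.59 (SE 0.118, adjusted p 0.00223). Zbtb18, a repressor best known from developing neurons (plus strand, chr1:177443216-177450764), stood at 5.74, 9.0 and 7.61 RPM in WT and at 14.0, 12.4 and 14.2 RPM in DM, a log2 change of 0.87 (SE 0.194). For both genes the lowest DM library exceeded the highest WT library. The Zbtb7b call was lost under DESeq2 scaling (log2 change 0.26, adjusted p 0.068), and that of Zbtb18 was kept.

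Lower in DM were Zbtb5 and Zbtb4, the second of which encodes a protein that can bind methylated CpG. Zbtb5 had 24.2, 30.0 and 32.0 RPM in WT and 20.6, 21.4 and 21.7 RPM in DM, a log2 change of -0.44 (SE 0.126). Zbtb4 had 43.0, 44.8 and 59.4 RPM in WT and 40.5, 37.3 and 37.3 RPM in DM, a log2 change of -0.35 (SE 0.135). WT replicate 3 was the highest library for both, and the Zbtb4 groups were apart by a small margin. Without WT replicate 3 the Zbtb4 log2 change was -0.19 and no longer passed. Of the 6 Zbtb and Ikaros genes together, 2 were higher and 4 lower, with a median log2 change of -0.40.

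Zeb2 (minus strand, chr2:44983632-45117395) contributed the most body reads of any member, over a body of 133 kb: 580, 581 and 781 RPM in WT and 964, 861 and 961 RPM in DM. Every DM library was above every WT library, and the log2 change was 0.52 (SE 0.135, adjusted p 0.00722), or 0.19 with an adjusted p of 0.127 under DESeq2 scaling. This single gene weighed on the family's total: the summed body signal of the zinc finger genes was 2266, 2193 and 2634 RPM in WT and 2709, 2607 and 2655 RPM in DM, and without Zeb2 it was 1686, 1611 and 1853 RPM against 1745, 1747 and 1694 RPM. Without Zeb2 the 3 DM sums lay inside the WT range.

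Of the KRAB-type genes, 4 rose and 3 fell among the 7 tested, and the median log2 change was 0.46. The 29 other members had a median of -0.35. The KRAB-type median leaves out Zfp184, which was not tested and changed by -2.74 in the fit without a filter on low counts. With 7 genes on both sides of 0 the median turns on single genes, so it does not set the classes apart. Zfp658 (plus strand, chr7:43562256-43575461) changed most upward, from 8.31, 10.7 and 8.57 RPM in WT to 17.3, 15.3 and 16.3 RPM in DM, a log2 change of 0.83 (SE 0.154, adjusted p 0.00162). Zfp473, a component of the machinery that trims histone pre-mRNA with the U7 snRNP, had 14.4, 11.1 and 13.9 RPM in WT and 19.4, 18.6 and 19.1 RPM in DM (log2 change 0.53, SE 0.136). The DM libraries were close to one another and above all WT libraries for both genes. Zfp729a had 9.01, 6.95 and 9.35 RPM in WT and 12.4, 11.3 and 12.9 RPM in DM (log2 change 0.52, SE 0.172), and Zfp958 had 18.1, 14.8 and 20.3 RPM in WT and 24.5, 26.3 and 22.5 RPM in DM (log2 change 0.46, SE 0.14). Both were apart between the groups, with WT replicate 2 the lowest library. Under DESeq2 scaling the changes of Zfp473, Zfp729a and Zfp958 were 0.20, 0.19 and 0.13 and did not pass, while Zfp658 did.

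The KRAB-type genes that fell were read thinly. Zfp9 (minus strand, chr6:118461950-118479320) had 3.66, 3.97 and 4.46 RPM in WT and 1.93, 2.87 and 2.05 RPM in DM, a log2 change of -0.82 (SE 0.295) with no overlap. Zfp940 had 5.44, 2.85 and 3.37 RPM in WT and 1.88, 2.32 and 1.95 RPM in DM, a log2 change of -0.92 (SE 0.337), which was -0.61 without WT replicate 1. Zfp57, a factor that keeps methylation at imprinted regions, had 373, 41 and 45 body reads in the WT libraries, against 33, 47 and 27 in DM. Only WT replicate 1 was high, and the other WT libraries overlapped the DM libraries once scaled to totals. The log2 change of Zfp57 was -2.04 (SE 0.756, adjusted p 0.0266), and without WT replicate 1 it was -0.44 with an adjusted p of 0.228. Zfp184 was left out of the test for low counts, with 63, 6 and 10 reads in WT against 3, 5 and 3 in DM.

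The excess in WT replicate 1 was found in further members. Zscan18 had 95, 11 and 12 body reads in WT against 8, 11 and 5 in DM, and its log2 change of -2.24 (SE 0.809, adjusted p 0.0243) became -0.68 (adjusted p 0.246) without that library. Zfp2 had 60, 23 and 24 reads in WT against 17, 13 and 10 in DM; its log2 change was -1.45 (SE 0.445) with all libraries and -0.99 (adjusted p 0.0396) without WT replicate 1. WT replicate 1 exceeded the next WT library by more than 2-fold for 2 of the 36 members tested (Zfp57 and Zscan18; 5.56%), and for 112 of the 2721 genes tested (4.12%); it did so too for Zfp184, which was not tested. WT replicates 2 and 3 did so for 4 genes each, or 0.147%, and for no member. The calls of Zfp57 and Zscan18 rested on this library. Zscan29, the other Zscan gene, ran the opposite way, with 10.6, 13.0 and 12.9 RPM in WT and 17.1, 16.8 and 19.2 RPM in DM (log2 change 0.54, SE 0.139; 0.21 and not passing under DESeq2 scaling).

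Among the 20 other Zfp genes 8 rose and 12 fell. The largest rise of any member was that of Zfp516, a regulator known from brown fat (plus strand, chr18:82910663-83005314), from 88.7, 111 and 91.3 RPM in WT to 203, 191 and 196 RPM in DM. The groups lay far apart compared with their spread, and the log2 change was 1.02 (SE 0.113, adjusted p 0.000142). Zfp326, which takes part in coupling elongation to splicing (plus strand, chr5:105876565-105915818), had 15.8, 15.2 and 13.9 RPM in WT and 29.1, 24.1 and 30.0 RPM in DM, a log2 change of 0.89 (SE 0.127, adjusted p 0.000457). Both calls held under DESeq2 scaling, with the adjusted-p threshold passed in each of the 11 alternatives run.

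Smaller rises were seen for Zfp276, with 20.1, 23.3 and 25.2 RPM in WT and 32.7, 35.5 and 32.2 RPM in DM (log2 change 0.55), and for Zfp710, with 167, 206 and 206 RPM in WT and 286, 268 and 280 RPM in DM (log2 change 0.53). Zfp655, Zfp597 and Zfp384, the last a factor that is fused to partners in acute leukaemia, changed by 0.47, 0.40 and 0.35. DM libraries exceeded WT libraries for each of these 5 genes, but none of the 5 passed under DESeq2 scaling, where their changes were 0.22, 0.20, 0.14, 0.07 and 0.015. Zfp407 had the smallest rise, from 160, 153 and 167 RPM to 185, 189 and 182 RPM. Its log2 change of 0.21 (SE 0.089, adjusted p 0.0431) turned to -0.12 under DESeq2 scaling and to -0.0025 under TMM, so its direction depends on the scaling.

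On the lower side, Zfp740 had 30.1, 29.7 and 29.2 RPM in WT and 19.9, 17.8 and 21.2 RPM in DM, a log2 change of -0.60 (SE 0.108, adjusted p 0.00142). Zfp507 had 47.6, 36.4 and 44.1 RPM in WT and 27.8, 30.3 and 26.9 RPM in DM (log2 change -0.59). Zfp800 (minus strand, chr6:28239927-28398005) had 141, 134 and 153 RPM in WT and 93.8, 103 and 92.0 RPM in DM, a log2 change of -0.57 (SE 0.099, adjusted p 0.00119). The groups were apart for all 3 genes, and each passed in all 11 alternatives. Zfp296, a gene studied in pluripotent cells, had 8.27, 6.88 and 5.46 RPM in WT and 4.07, 4.85 and 3.65 RPM in DM (log2 change -0.71).

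Zfp521, a cofactor associated with immature blood cells (minus strand, chr18:13687013-13972548), had 59.9, 56.5 and 77.1 RPM in WT and 45.7, 50.1 and 45.7 RPM in DM, a log2 change of -0.45 (SE 0.131, adjusted p 0.0111). Zfp518a and Zfp518b, whose products associate with the histone methyltransferase G9a, both fell in the body, by -0.37 and -0.49. In the head their log2 changes were 0.12 (SE 0.248) and -0.79 (SE 0.317), neither passing. Zfp91, which encodes an E3 ubiquitin ligase, had 96.2, 100 and 104 RPM in WT and 74.9, 83.6 and 73.4 RPM in DM (log2 change -0.38). Zfp280b, Zfp787 and Zfp438 were the remaining lower genes, with log2 changes of -0.49, -0.28 and -0.28 and no overlap between groups.

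Leaving out single libraries ended body calls among the members and among all genes. Without DM replicate 1, 23 members passed, as did 2068 of 2737 genes, and the members lost were Zfp9, Zfp57, Zfp280b, Zfp296, Zfp384, Zfp407, Zfp438, Zfp518b, Zfp729a, Zfp787, Zfp940, Zbtb4 and Zscan18. Without DM replicate 3, these and Zfp2 were lost and 22 passed, as did 2047 of 2739 genes. The changes themselves moved little in these fits: without DM replicate 1, that of Zfp280b was -0.44 and that of Zfp296 was -0.69, and without DM replicate 3 they were -0.50 and -0.62. Without DM replicate 2, 31 passed (2422 of 2739 genes), with Zfp57, Zfp407, Zfp787, Zfp940 and Zbtb4 lost, and without WT replicate 1, 32 passed (2558 of 2721 genes), with Zfp57, Zfp407, Zfp787 and Zscan18 lost. Without WT replicate 2, 35 passed (2652 of 2723 genes), with only Zfp407 lost. Without WT replicate 3, 35 passed (2617 of 2738 genes), with only Zbtb4 lost.

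**Figure D2:**
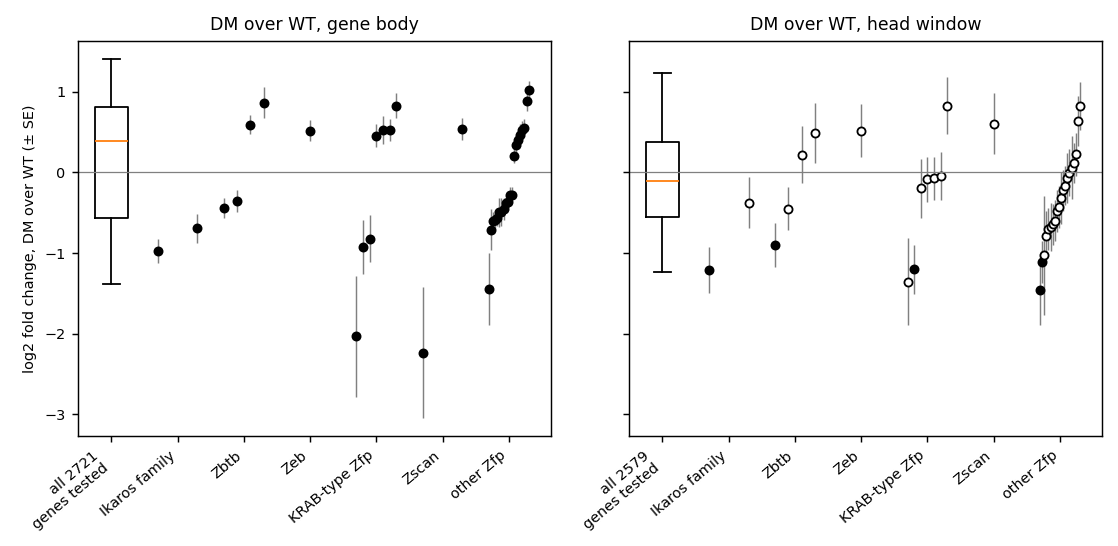
Log2 change, DM over WT, in the gene body (left) and in the head window (right), with each member as a point with its SE, by class. Filled points passed an adjusted p of 0.05. The box shows the quartiles of all genes tested, and its whiskers leave out the most extreme values at either end. In the body both Ikaros genes lie below 0 and every other class with more than 1 gene lies on both sides; in the head only points below 0 are filled.

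Per length, the zinc finger genes spanned a wide range of body signal. Levels here are RPKM, the body RPM divided by the body's length in kilobases. In WT the highest were Zeb2, at 4.85 ± 0.869 RPKM against 6.96 ± 0.44 RPKM in DM (SD, n = 3 per group), and Zfp787, at 4.87 ± 0.354 and 4.01 ± 0.265 RPKM, which in WT differed by less than their spread. In DM Zeb2 was followed by Zbtb7b, with 5.25 ± 0.207 RPKM against 3.49 ± 0.472 in WT, and then by Zfp710, with 4.12 ± 0.131 against 2.86 ± 0.338 RPKM, and Zfp787, which differed in DM by less than their spread. Lowest were Zfp184, at 0.0775 ± 0.0872 and 0.0115 ± 0.00405 RPKM, Zfp2, at 0.101 ± 0.0467 and 0.0367 ± 0.00714 RPKM, and Zscan18, at 0.146 ± 0.165 and 0.0311 ± 0.0122 RPKM. For Zfp184 and Zscan18 the SD in WT was larger than the mean. Ikzf2 had 1.86 ± 0.496 and 1.15 ± 0.0829 RPKM, above Ikzf4 with 0.698 ± 0.132 and 0.355 ± 0.000871 RPKM.

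**Figure D3:**
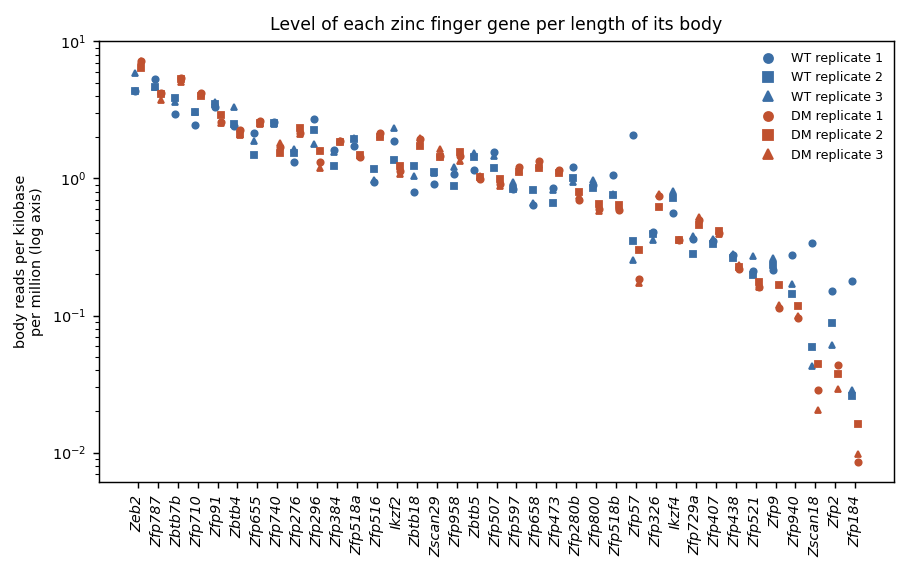
Body RPKM of each zinc finger gene in each library (log axis), blue for WT and red for DM, with marker shapes for replicates; genes are ordered from high to low. Zeb2, Zfp787, Zbtb7b and Zfp710 lie at the top, and the WT replicate 1 marker stands above the others for Zfp57, Zscan18 and Zfp184.

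Head windows report polymerase near the start site, including paused polymerase, and were not used by the authors to select the genes, although they come from the same libraries. With edgeR's quasi-likelihood test, 5 of the 35 members tested passed an adjusted p of 0.05, all 5 lower and 0 higher in DM (before adjustment 13 were under 0.05, 2 higher and 11 lower). Over all 2579 genes tested 20.3% passed, 9.62% higher and 10.7% lower. Before adjustment 960 of the 2579 genes were under 0.05, 401 higher and 559 lower. DESeq2 called 3 members higher and 9 lower, and TMM factors 3 and 11; over all 2579 genes DESeq2 called 465 in each direction, and TMM factors 496 higher and 488 lower. The 3 that both called higher were Zeb2, Zfp326 and Zfp516. The groups' libraries were apart for 2 members on the higher side and 11 on the lower, against 18.1% and 23.4% of all genes, or 41.6% in both directions. The median log2 change was -0.22 for the members and -0.11 for all genes. Zfp184 and Zscan18 had too few head reads to be tested.

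Head calls changed in number with the libraries used, among the members and among all genes. WT replicate 2 held more head signal than the rest: the members' heads summed to 220.3, 339.8 and 254.2 RPM in WT replicates 1 to 3 and to 223.4, 242.7 and 227.9 RPM in DM. Per 100 body reads of the members this was 9.72, 15.5 and 9.65 head reads in WT against 8.25, 9.31 and 8.58 in DM, and over all genes 13.4, 23.7 and 14.9 in WT against 12.7, 14.5 and 13.8 in DM. Without WT replicate 2, 11 members passed, 4 of them higher: Zeb2 (log2 change 0.96), Zfp326 (1.1), Zfp516 (1.11) and Zscan29; the median of all genes moved by 0.22 in the same fit. Over all genes 942 of 2615 passed there, 579 higher. Without WT replicate 1, 12 members passed, all lower, beside 850 of 2607 genes. By edgeR's test, 0 members passed without DM replicate 1 or without DM replicate 3, with 6 and 5 at an unadjusted p under 0.05. Over all genes 14 of 2633 and 110 of 2645 passed, and unadjusted counts over all genes were not made for these fits. The changes of Ikzf4 were still -1.10 and -1.31, and those of Zfp800 -1.06 and -1.05. Without DM replicate 2 or WT replicate 3, 2 and 3 members passed, all lower, beside 207 of 2646 and 311 of 2618 genes.

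The 5 head calls were Ikzf4, Zbtb4, Zfp9, Zfp800 and Zfp521. Ikzf4 had 3.79, 5.09 and 6.03 RPM in WT and 1.84, 2.18 and 2.45 RPM in DM, a log2 change of -1.20 (SE 0.286, adjusted p 0.0131). Zfp9 had 3.31, 3.44 and 4.59 RPM in WT and 1.31, 2.18 and 1.45 RPM in DM, also -1.20 (SE 0.306, adjusted p 0.0165). The groups were apart for both, and for neither did the ratio of head to body pass. Zfp800 had 11.4, 8.93 and 12.1 RPM in WT and 4.60, 5.89 and 4.5 RPM in DM, a log2 change of -1.11 (SE 0.26, adjusted p 0.0125). Zbtb4 had 4.35, 3.77 and 5.33 RPM in WT and 2.19, 2.32 and 2.70 RPM in DM, a log2 change of -0.90 (SE 0.273, adjusted p 0.0304). Every DM library was below every WT library for these genes too. Zfp521 had 1.04, 3.57 and 3.41 RPM in WT and 0.657, 1.04 and 1.20 RPM in DM, a log2 change of -1.46 (SE 0.441, adjusted p 0.0304); WT replicate 1 lay inside the DM range.

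Head and body comparisons share all their libraries, so their values are set side by side and no agreement between them is counted. Zfp516 had head levels of 2.18, 4.17 and 2.71 RPM in WT and 4.95, 4.70 and 6.26 RPM in DM, a head log2 change of 0.83 (SE 0.295, adjusted p 0.0583) beside the body's 1.02. Zfp326 had 9.75, 19.2 and 8.22 RPM in WT and 20.0, 18.7 and 18.9 RPM in DM, a head change of 0.64 (SE 0.309, adjusted p 0.145) beside 0.89; WT replicate 2 alone reached the DM level. Zeb2 had 3.87, 11.4 and 6.99 RPM in WT and 10.2, 10.1 and 11.3 RPM in DM, a head change of 0.52 (SE 0.331, adjusted p 0.274) beside 0.52. Here too WT replicate 2 was as high as the DM libraries. Zfp658, with 10.2, 17.5 and 10.1 RPM in WT and 12, 11.4 and 12.1 RPM in DM, had a head change of -0.09 (SE 0.277) beside a body change of 0.83. Ikzf2, with 2.74, 2.71 and 5.38 RPM in WT and 2.58, 2.97 and 2.85 RPM in DM, had a head change of -0.38 (SE 0.314, adjusted p 0.415) beside -0.69.

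**Figure D4:**
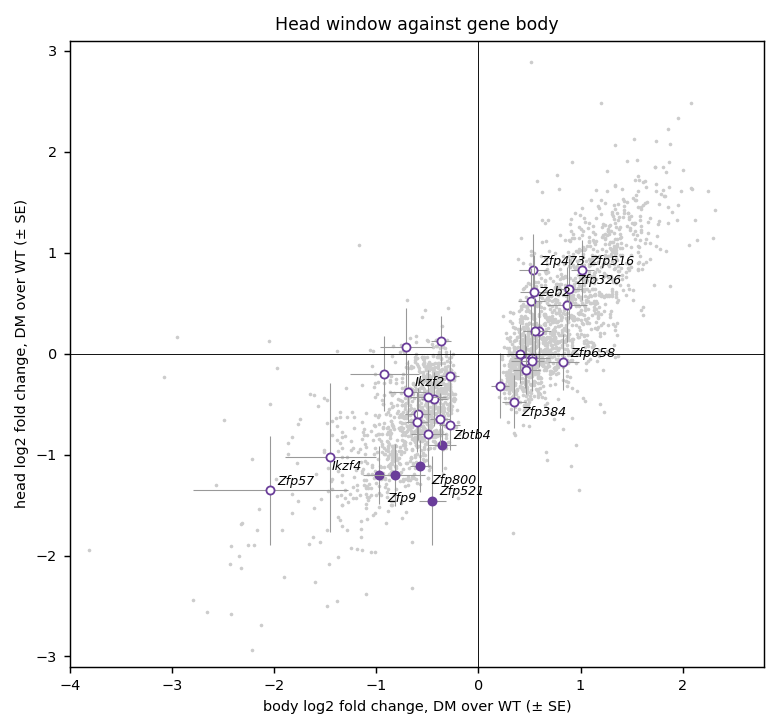
Head log2 change (y axis) against body log2 change (x axis), DM over WT, for all genes tested in both (grey; a few lie outside the axes) and for the 35 zinc finger genes (purple, with SEs; filled where the head passed an adjusted p of 0.05). The points share their libraries in both axes; the 5 filled points lie in the lower left, and Zfp658 lies near 0 on the head axis at a body change of 0.83.

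The promoters of 4 members are shown because their heads or bodies differ between the groups in different ways: Zbtb4 and Zfp800 were lower in both windows, Zfp326 rose in the body, and Zfp473 is a KRAB-type gene that rose in the body. Each window holds 250 bases before and 50 after the start in RefSeq (GRCm38.p6, which is mm10), in the gene's sense. Capitals mark letters of the motifs searched on both strands: CCGGAAG as an ETS core, AGATAA as a GATA core, TATAAA as the core element often found near start sites, CCAAT as the box of that name, CACGTG as an E-box and GGGCGG as a GC box; no 2 matches overlap in these windows. The windows lie at chr11:69765662-69765961 (plus) for Zbtb4, chr6:28397956-28398255 (minus) for Zfp800, chr5:105876318-105876617 (plus) for Zfp326 and chr7:44748568-44748867 (minus) for Zfp473.
Zbtb4: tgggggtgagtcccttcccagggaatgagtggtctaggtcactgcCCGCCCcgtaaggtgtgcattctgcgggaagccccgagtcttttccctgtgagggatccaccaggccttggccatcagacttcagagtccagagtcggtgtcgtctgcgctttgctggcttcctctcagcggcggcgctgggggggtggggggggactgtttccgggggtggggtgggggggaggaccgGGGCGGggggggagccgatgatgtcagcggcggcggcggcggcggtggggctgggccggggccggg
Zfp800: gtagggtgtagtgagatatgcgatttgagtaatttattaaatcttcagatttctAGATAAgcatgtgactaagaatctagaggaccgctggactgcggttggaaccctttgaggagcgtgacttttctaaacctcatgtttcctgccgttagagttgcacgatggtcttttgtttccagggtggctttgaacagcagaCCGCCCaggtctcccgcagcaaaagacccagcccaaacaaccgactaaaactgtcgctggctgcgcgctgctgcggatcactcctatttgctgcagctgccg
Zfp326: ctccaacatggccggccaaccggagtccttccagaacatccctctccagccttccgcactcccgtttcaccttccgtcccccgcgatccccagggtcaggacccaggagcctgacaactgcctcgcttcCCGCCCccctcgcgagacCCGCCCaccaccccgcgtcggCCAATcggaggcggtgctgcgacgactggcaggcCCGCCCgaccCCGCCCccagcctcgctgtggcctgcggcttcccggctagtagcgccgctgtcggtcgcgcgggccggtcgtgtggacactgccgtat
Zfp473: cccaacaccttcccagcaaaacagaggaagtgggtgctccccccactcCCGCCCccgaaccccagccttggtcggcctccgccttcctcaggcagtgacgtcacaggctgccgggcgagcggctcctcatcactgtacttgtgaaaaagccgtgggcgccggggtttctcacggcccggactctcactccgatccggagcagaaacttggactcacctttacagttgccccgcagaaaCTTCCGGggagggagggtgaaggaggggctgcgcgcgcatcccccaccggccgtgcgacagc

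Zfp326 held 4 GC boxes and a CCAAT box, Zbtb4 held 2 GC boxes, Zfp800 held 1 GC box and a GATA core, and Zfp473 held 1 GC box and an ETS core. The windows contained 34, 22, 14 and 23 CpG dinucleotides respectively. RefSeq windows were matched for 29 of the 37 members, 22 of them with a start within 100 bp of the deposited one. Their median was 19 CpG, against 21 in the windows of 2148 genes of the table and 7 in all 32851 windows. An ETS core was found in 10 of the 29 (34.5%), in 12.2% of the windows of the table's genes and in 8.86% of all windows. A GATA core was found in 4 of the 29 (13.8%), against 5.63% and 11.2%. No member window held the letters TATAAA, which were in 6.70% and 13.6% of the others. GC boxes (62.1% of members, 69.1% of the table's genes and 35.7% of all windows), CCAAT boxes (37.9%, 35.7% and 37.4%) and E-boxes (10.3%, 10.8% and 7.15%) were also counted. These shares describe letters in the windows, and no test was made of them.

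Head reads relative to body reads measure how polymerase is divided between the start and the rest of the gene. By edgeR's interaction of window and group, 0 of the 35 members passed an adjusted p of 0.05, with 4 at an unadjusted p under 0.05, all lower in DM; DESeq2 also called 0, with 5 at an unadjusted p under 0.05. Over all genes 0.0776% passed by edgeR, and DESeq2 called 34 of 2577. Without adjustment, edgeR's interaction put 395 of the 2577 genes below 0.05, of which 349 fell in DM and 46 rose. That the 4 members were all lower is thus not read as a trait of the members. For DESeq2 and the other ratio settings, unadjusted counts over all genes were not made. The median log2 change of the ratio was -0.24 for the members and -0.26 for all genes. Its sign depended on the scaling: with TMM factors computed separately for heads and bodies the medians were 0.07 and 0.05, and 4 members were higher and 2 lower at an unadjusted p under 0.05, again with 0 after adjustment (51 of 2577 over all genes). Without WT replicate 2 the medians were 0.0033 and -0.07. Zfp658 had 123, 163 and 118 reads in its head for every 100 in its body in WT, against 69.4, 74.5 and 73.9 in DM, a log2 change of -0.88 (SE 0.25, adjusted p 0.202). Zfp384 had 30.9, 67.1 and 37.7 in WT against 23.6, 25.7 and 24.1 in DM, and Zfp655 had 61.0, 105 and 62.1 in WT against 46.0, 48.8 and 46.3 in DM. Libraries of the groups were apart for these genes, and WT replicate 2 was the highest each time. Zfp800 had 8.08, 6.65 and 7.87 in WT against 4.90, 5.70 and 4.89 in DM, without WT replicate 2 standing out. Running the other way without passing, Zfp296 had 16.8, 15.4 and 11.2 in WT against 25.8, 18.4 and 34.2 in DM (adjusted p 0.343), and Zfp518a had 36.0, 29.7 and 36.8 in WT against 45.6, 54.2 and 43.9 in DM (adjusted p 0.354).

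**Figure D5:**
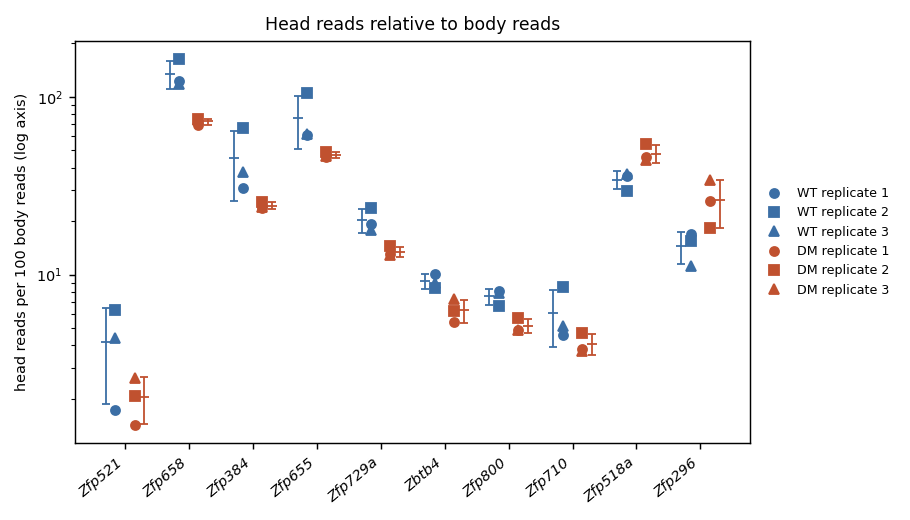
Head reads per 100 body reads (log axis) in each library for the 10 members with an unadjusted ratio p under 0.1; bars are mean ± SD of 3 libraries, blue for WT and red for DM. Zfp658 falls from 118 or more in WT to 74.5 or less in DM, and Zfp518a and Zfp296 are higher in DM; no gene passed after adjustment.

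For 6 members the table held a second transcript row with another start or end (Ikzf4, Zeb2, Zfp276, Zfp473, Zfp516 and Zfp521). Their body directions were the same in both rows. Heads differed more: at the start of the Zeb2 row used the head log2 change was 0.52 (SE 0.328), and at the start of its other row it was 0.08 (SE 0.261), neither passing. Zfp473 had 0.83 at the start of the row used and 0.11 at the other. For Ikzf4 the heads of the row used and of the other row changed by -1.20 (adjusted p 0.0123) and -1.0 (adjusted p 0.0500033, which did not pass), and for Zfp521 they changed by -1.46 (adjusted p 0.0292) and -0.91 (adjusted p 0.133), with p-values adjusted over all transcript rows. For both genes, then, the head passed at the start of the row used and not at the other. Whether the 2 starts of a gene differed was not tested.

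The partners of these proteins were looked at as lists. Of 19 KRAB co-repressor genes, 4 were held: Cbx3, Cbx5 (both HP1 proteins) and Uhrf1 fell in the body, by log2 changes of -0.34, -0.37 and -0.39, and Morc3 rose by 0.30. None of the 4 passed in the head. Among co-repressor genes of BTB and Ikaros proteins, Bcor, Chd3 and Mta1, the latter pair subunits of NuRD, fell in the body by log2 changes of -0.31, -0.53 and -0.27. Of these, Chd3 passed in the head, with a log2 change of -1.07 (adjusted p 0.0214). Of 41 other C2H2 zinc finger regulators, 10 were held and 9 tested: 5 rose in the body (Klf4 1.49, Hivep3 0.78, Klf13 0.60, Klf7 0.33 and Rreb1 0.32) and 4 fell (Patz1 -0.75, Gfi1 -0.75, Gfi1b -0.72 and Hivep2 -0.47). None passed in the head. The rises of Morc3, Klf7 and Rreb1 were close in size to the shift of -0.33 in the median of all genes under DESeq2 scaling. Their direction may thus depend on the scaling. The other genes of these lists were not analysed here.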

How the data were processed

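Read counts per transcript in a head and a body window of each library, and a library total per library, were deposited by the authors as raw counts. RPKM values in the deposited table equal count over window length and library total. The deposited mean signal is the mean of body counts over size factors. The log2 fold changes, p-values and adjusted p-values of the body comparison were deposited by the authors, and every row has an adjusted p under 0.05. Bowtie 1.1.2, bedtools 2.28, MACS2, cutadapt, Trimmomatic and the builds mm10 and dm3 are named in the submitters' processing notes, without their roles. How library totals were counted, and the use of strand and multiply mapped reads, are not given in the sources used here.

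Each gene was represented by its row of highest mean body count; 278 rows were dropped by this, 6 of them of members. The quasi-likelihood test of edgeR 4.0.16 (with limma 3.58.1 in R 4.3.3) was run on body and on head counts after filterByExpr, with libraries scaled by their totals and p-values adjusted by Benjamini-Hochberg over all genes tested, at 0.05. Totals were preferred to TMM because the table holds only called rows. The ratio was tested as the interaction of window and group with library as a block. DESeq2 1.42.0, TMM, the authors' size factors, no filter, a replicate block and leaving out each library were the alternatives. The procedures were also run on simulated counts with the same dispersion for every gene, no excess of head signal in any library and no selection of rows. These libraries differ from that setting, so the simulation does not measure how reliable the calls here are. Counting error is smallest for the members with the most reads; p-values carry the spread between libraries.

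Members, gene lists and tests were chosen with earlier results of these data known. Members were named by class: every Ikzf, Zeb and Zbtb gene, the 5 largest non-overlapping body changes per direction with at least 50 mean reads among KRAB-type and other members, and every head or ratio call. Those outside this rule, the ratio examples included, were named after their values were seen. The KRAB type was assigned from general knowledge of the genes, since no protein sequence was used here. The labels do not say whether replicate numbers pair the libraries, and the main tests took the libraries as unpaired. Of the genes on the lists, 1 is not reported here.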

Additional observations from a re-analysis of the deposited data

How the results depend on the processing

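Of the 36 members tested in the body, 13 kept their direction and their call under all 11 alternatives, 4 higher and 9 lower in DM. The same count was not made over all genes. There DESeq2 scaling cut the higher calls from 1562 to 863, while lower calls went from 1145 to 1158. The split of 4 and 9 is thus not read as a trait of the members. Members called higher in the body numbered 16 with library totals, 4 with DESeq2 and 9 with TMM factors, and the members' median log2 change of -0.32 became -0.65 and -0.53; these scalings assume that most rows did not change. Zfp407 reversed, to -0.12 with DESeq2 and -0.0025 with TMM. Leaving out 1 library gave 22 to 35 body calls, 13 to 16 higher and 9 to 20 lower. In the head, 5 members were called with totals, 12 with DESeq2 (3 higher, 9 lower), 14 with TMM (3 higher, 11 lower) and 0 to 12 when a library was left out (0 to 4 higher, 0 to 12 lower). No ratio of a member passed under any setting. Correlations of same-numbered deviations were -0.07, -0.19 and 0.41, which with 3 libraries per group cannot decide whether replicate numbers pair the libraries. With the replicate block the body had 33 member calls (15 higher, 18 lower), the head 10 (2 higher, 8 lower) and the ratio 0. Over all genes the block gave 2635 of 2721 in the body (1542 higher, 1093 lower). In the head it gave 796 of 2579 (375 higher, 421 lower), and for the ratio 38 of 2577. Low counts limit Zfp184, Zscan18, Zfp57 and Zfp2, and the head windows generally.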
